A study of Bos taurus with 24 samples.

Results

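TNF, IL1B, IL6 and IL10 encode the cytokines tumour necrosis factor, interleukin-1 beta, interleukin-6 and interleukin-10. They were followed here by their gene identifiers (TNF, ENSBTAG00000025471; IL1B, ENSBTAG00000001321; IL6, ENSBTAG00000014921; IL10, ENSBTAG00000006685), which are 4 of the 24616 genes listed in each library. The genes were chosen by name and not by a rule on their values, but with earlier results of these data known. All 4 were measured and tested in every comparison. The files give no positions for them, and no genome of the build used was read here.

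The cells were monocyte-derived macrophages (MDMs) from 6 Holstein cows in mid-lactation, 3 of a high and 3 of a low responder phenotype. The phenotype describes how much nitric oxide (NO) the MDMs of a cow released in culture when challenged with Escherichia coli, so it was set on the same type of cell and stimulus, but not on these transcripts. Blood monocytes were grown for 6 days in serum-free medium with the growth factor GM-CSF at 5 ng/ml, a recombinant bovine protein, which controls and exposed wells shared. For each cow and time point 1 well was left untreated and 1 was exposed to E. coli inactivated with paraformaldehyde, at a multiplicity of infection of 5, for 3 or 18 hours. This gave 24 mRNA libraries in 8 groups of 3. The bacteria could not multiply, and all that follows is transcript abundance, not secreted protein.

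When macrophages sense bacterial products such as lipopolysaccharide through Toll-like receptors, NF-kB and MAP kinases switch on cytokine genes. TNF and IL-1 beta are early alarm cytokines that act on neighbouring cells and vessels. IL-6 carries the signal further and drives the acute phase response in the liver, whereas IL-10 restrains macrophages and lowers the output of the other three. In cattle these cytokines are best known from E. coli infection of the udder.

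Totals per library were 6297190 to 20936554 read pairs assigned to genes, with a median of 12375480. The macrophage markers with an identifier here (CD14, CD68 and MSR1) summed to 1779 to 3101 CPM over all libraries, and the B cell marker CD79A lay between 0.129 and 1.94 CPM. CPM is the count of a gene per 1000000 counts, scaled with TMM factors over the 24 libraries. No T cell, NK cell, neutrophil or dendritic cell marker of the lists had an identifier in the tables used, so the presence of these cells was not examined. In bulk RNA, fewer cells of a type and less transcript per cell cannot be told apart.

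Without bacteria the cytokines were transcribed at very different levels. On the TPM scale, which is per transcript length and so allows genes to be compared, IL1B stood at 32.3 to 138 TPM and TNF at 12.7 to 39.0 TPM in the 12 control libraries. IL10 stood at 1.23 to 7.54 TPM and IL6 at 0.15 to 4.98 TPM. The low pair rested on few reads, since control libraries held 6 to 45 read pairs of IL10 and 1 to 39 of IL6.

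Exposure to E. coli for 3 hours raised all 4 transcripts in both phenotypes. TNF was at 23.3, 17.4 and 12.7 CPM in the control wells of the high responders (pairs 1, 2 and 3) and at 6470, 2009 and 8436 CPM in their exposed wells. A pair is the control and the exposed well of 1 cow, as read from the number in the sample name. The low responders held 35.9, 43.0 and 37.5 CPM without and 8213, 6332 and 5689 CPM with bacteria. Control and exposed wells were thus far apart in each pair, and among the exposed wells that of high pair 2 was the lowest.

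IL1B went from 58.4, 81.4 and 50.4 CPM to 9975, 3043 and 13420 CPM in the high responders. That of the low responders went from 37.7, 36.8 and 102 CPM to 8732, 5380 and 9610 CPM. Here too high pair 2 had the lowest exposed value, and low pair 3 had the highest control value. At 3 hours IL1B ranked between 14 and 59 among all genes by TPM in the exposed wells, and IL1B with TNF took 0.449% to 1.63% of all counts, against 0.00700% to 0.0150% in the control wells.

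IL6 rose from 1.09, 1.73 and 0.459 CPM to 111, 80.1 and 92.4 CPM in the high responders. It rose in the low responders from 0.871, 0.101 and 3.13 CPM to 89.7, 77.0 and 352 CPM, so that low pair 3 stood well above the other 5 exposed wells. IL10 rose from 1.77, 2.89 and 1.84 CPM to 66.7, 45.9 and 95.6 CPM in the high responders. Its values in the low responders were 1.45, 0.605 and 1.68 CPM without and 38.4, 28.0 and 60.9 CPM with bacteria. Both interleukins were thus near the lower end of the measured range in control wells and well within it after 3 hours.

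**Figure D1:**
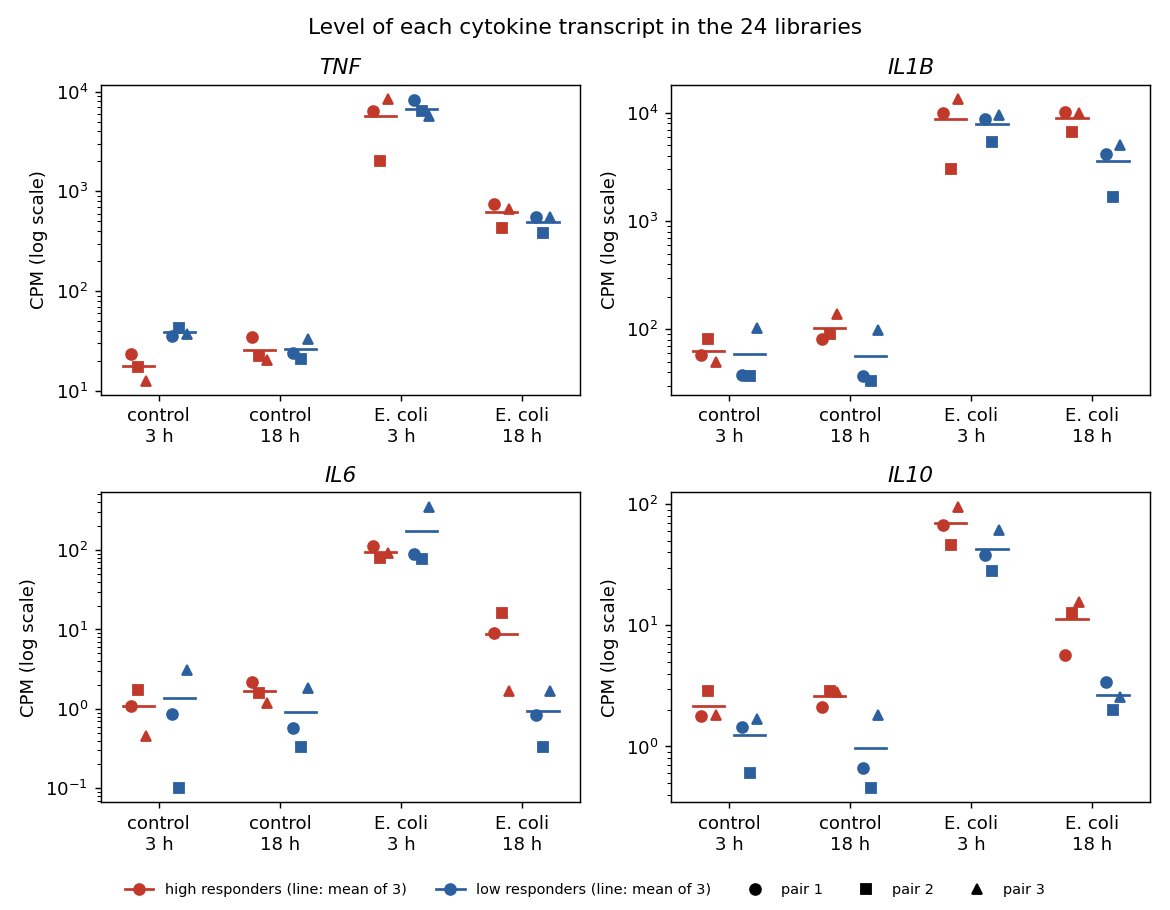
Transcript level of each cytokine as CPM (log axis) in the 24 libraries, by treatment and time, with high responders in red, low responders in blue, 1 symbol shape per pair of wells and a line at the mean of 3 libraries. All exposed wells lie above all control wells for TNF and IL1B at both times, and for IL6 and IL10 at 3 hours. At 18 hours the IL6 values of exposed and control wells overlap in both phenotypes, in the high responders through pair 3.

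The fitted changes at 3 hours were large for each gene. A gene was called when its adjusted p in edgeR's quasi-likelihood test (Benjamini-Hochberg over all genes tested) was under 0.05 and its fold change over 1.5. In the high responders 4 of 4 cytokines were called, where 27.6% of the 11264 genes tested were called in either direction. The log2 change was 8.17 ± 0.49 for TNF, 6.98 ± 0.59 for IL1B, 6.49 ± 0.37 for IL6 and 4.98 ± 0.31 for IL10 (SE, 3 pairs), with edgeR adjusted p of 6.1e-06, 3.6e-05, 4.4e-06 and 6.5e-06.

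In the low responders 4 of 4 were called as well, against 17.7% of all genes tested. The log2 change was 7.43 ± 0.47 for TNF, 7.20 ± 0.58 for IL1B (adjusted p = 6.0e-05 in edgeR, the largest of the 4), 7.08 ± 0.39 for IL6 and 5.13 ± 0.34 for IL10. The median over the 4 cytokines was 6.74 in the high and 7.14 in the low responders, beside medians of -0.01 and -0.03 over all genes tested. As folds, TNF rose 287-fold and 173-fold, IL1B 126-fold and 147-fold, IL6 90.2-fold and 135-fold, and IL10 31.6-fold and 35.0-fold in high and low responders.

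The 3 high responders differed in the size of this early response. In pair 2 the fold change was the lowest of the 3 pairs for each cytokine, at 116 for TNF, 37.4 for IL1B, 46.3 for IL6 and 15.9 for IL10. In pair 3 it was the highest for each, at 664 for TNF, 266 for IL1B, 201 for IL6 and 52.1 for IL10. Without pair 2 the log2 changes were 8.81, 7.79, 7.25 and 5.58, and without pair 3 those of TNF and IL1B were 7.54 and 6.37, with all of them still called.

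The low responders showed no such shared order of the pairs at 3 hours. TNF and IL1B rose most in pair 1 (229-fold and 231-fold), whereas IL6 and IL10 rose most in pair 2 (764-fold and 46.4-fold). The fold of IL6 in pair 2 was measured against 1 read pair in the control well, and its 95% counting interval ran from 137 to 30220. That of TNF in the same pair, with 427 control read pairs, ran from 134 to 162. Such intervals cover counting error only, since the libraries carry no molecular identifiers.

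**Figure D2:**
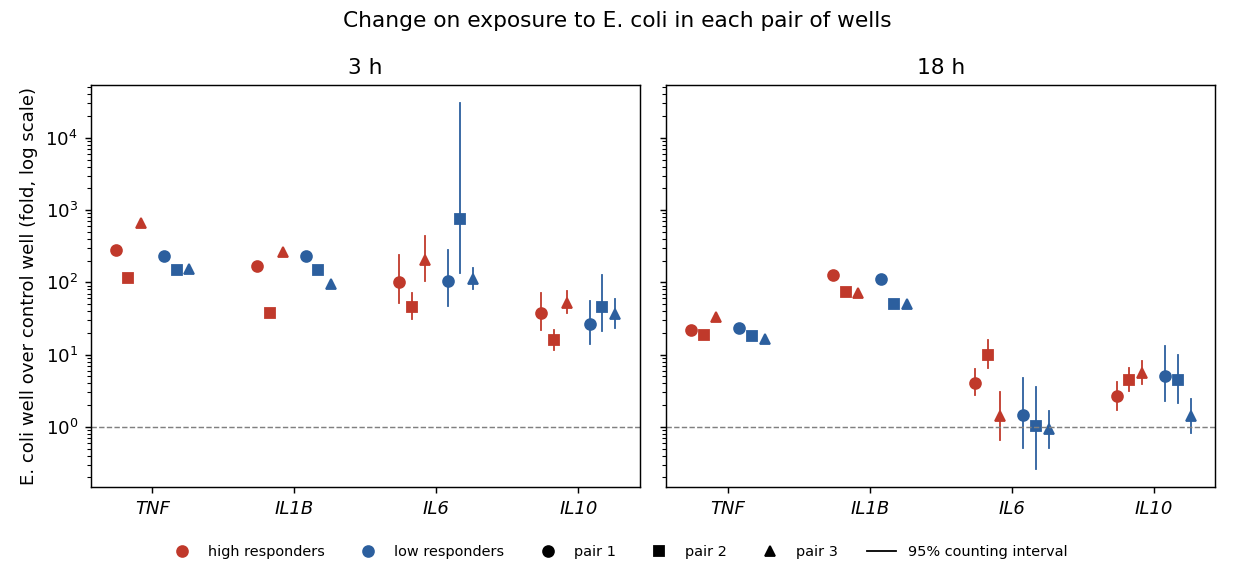
Fold change of each cytokine in the exposed over the control well (log axis) for each of the 12 pairs of wells, at 3 hours (left) and 18 hours (right), with vertical lines for the 95% counting interval and a dashed line at no change. At 3 hours every pair lies between 15.9 and 764, and at 18 hours TNF and IL1B stay high while IL6 in the low responders sits between 0.925 and 1.46.

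By 18 hours the cytokines had parted. IL1B was at 10210, 6650 and 9879 CPM in the exposed wells of the high responders and at 80.8, 90.6 and 140 CPM in their control wells. Low responders held 4195, 1684 and 5008 CPM with and 37.3, 33.7 and 98.6 CPM without bacteria. IL1B thus remained one of the most abundant transcripts, ranked 15 to 26 by TPM in exposed wells of high and 27 to 100 in those of low responders.

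TNF, in contrast, was at 749, 427 and 667 CPM in exposed wells of the high and at 557, 381 and 551 CPM in those of the low responders. The control wells held 34.4, 22.5 and 20.2 CPM and 23.98, 21.1 and 33.0 CPM. TNF was thus still above control in all 6 pairs, by 16.7-fold to 33.0-fold.

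IL6 was at 8.94, 16.0 and 1.68 CPM in exposed wells of the high responders, beside 2.19, 1.61 and 1.18 CPM in their control wells. Low responders held 0.835, 0.334 and 1.68 CPM with and 0.571, 0.330 and 1.81 CPM without bacteria. These low values stand for 5 to 25 read pairs in the low and 14 to 187 in the high responders' exposed wells. IL6 was thus above control in high pairs 1 and 2, whose counting intervals for the fold (2.74 to 6.24 and 6.44 to 16.1) lay above 1, while those of high pair 3 and of all 3 low pairs included 1.

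IL10 was at 5.68, 12.8 and 15.6 CPM in exposed and 2.13, 2.86 and 2.81 CPM in control wells of the high responders. In the low responders it was at 3.41, 2.01 and 2.55 CPM with and 0.666, 0.453 and 1.81 CPM without bacteria. It was higher in the exposed well of every pair, by 1.41-fold in low pair 3 to 5.57-fold in high pair 3.

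In the edgeR test at 18 hours 4 of 4 cytokines were called in the high responders, where 39.6% of the 11759 genes tested were called. The log2 change was 4.56 ± 0.17 for TNF, 6.43 ± 0.28 for IL1B, 2.15 ± 0.42 for IL6 (adjusted p = 0.0015) and 2.03 ± 0.32 for IL10 (adjusted p = 3.8e-04). Without high pair 2, which had the highest IL6, that of IL6 was 1.44 and still called (adjusted p = 0.018).

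In the low responders 3 of 4 were called, against 29.1% of all genes tested. The log2 change was 4.23 ± 0.16 for TNF, 6.00 ± 0.28 for IL1B and 1.49 ± 0.39 for IL10 (adjusted p = 0.011). That of IL6 was 0.07 ± 0.54 (adjusted p = 0.93), with a 95% interval of -1.13 to 1.28 that still admits a change of over 1.5-fold in either direction. The call of IL10 rested on the full set of pairs: it was lost without low pair 1 (1.19, adjusted p = 0.069) or low pair 2 (1.21, adjusted p = 0.071), and the change was 2.20 without low pair 3. The median change over the 4 cytokines was 3.35 in the high and 2.86 in the low responders, beside -0.04 and 0.00 over all genes tested.

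The course from 3 to 18 hours was tested within the exposed wells. In the high responders 3 of 4 cytokines fell, where 24% of the 11462 genes tested changed in either direction. TNF fell by 3.19 ± 0.44 on the log2 scale, IL6 by 3.37 ± 0.71 and IL10 by 2.62 ± 0.40 (edgeR adjusted p of 4.9e-04, 0.0049 and 9.2e-04). IL1B changed by 0.02 ± 0.49, with a 95% interval of -1.04 to 1.08, so that a change of up to about this size in either direction was not resolved.

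In the low responders 3 of 4 fell too, where 19.3% of the genes tested changed. TNF fell by 3.78 ± 0.45, IL6 decreased by 7.51 ± 0.89 and IL10 dropped by 4.01 ± 0.44, with edgeR adjusted p of 3.3e-04, 3.2e-04 and 2.3e-04. As folds, TNF was 13.7-fold, IL6 182-fold and IL10 16.1-fold lower at 18 than at 3 hours, against 9.14-fold, 10.4-fold and 6.14-fold in the high responders. The IL6 value leaned on low pair 3, which was highest at 3 hours: it was -6.44 without that library of 3 hours and -8.19 without the same pair's library of 18 hours. In the high responders it was -4.07 without the exposed library of pair 2 at 18 hours.

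IL1B in exposed wells of the low responders differed by -1.14 ± 0.49 between 18 and 3 hours (adjusted p = 0.11), which missed the threshold. With the 2 letters of the sample names, taken to match cows across times, as a replicate block, it was -1.24 (edgeR adjusted p = 0.0046) and was called. It was also called without the exposed library of high pair 2 at 3 hours (-1.13, adjusted p = 0.048), which entered the fit only through the scaling, the filter and the shared estimate of spread.

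In control wells 0 of 4 cytokines changed between 3 and 18 hours, and 0.0259% of the 11581 genes tested did. The log2 differences were -0.00 ± 0.19 for TNF, 0.34 ± 0.33 for IL1B, -0.01 ± 0.59 for IL6 and -0.04 ± 0.36 for IL10, with unadjusted p in edgeR of 0.99, 0.32, 0.99 and 0.90, none under 0.05. DESeq2 called 0 of 4 too.

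The main question of the study was whether MDMs of high and low responders answer E. coli differently. For the change on exposure itself, 0 of 4 cytokines differed between the phenotypes at 3 hours in edgeR, where 0.178% of all genes tested were called. The difference of the log2 changes, high minus low, was 0.73 for TNF (95% interval -0.47 to 1.93), -0.22 for IL1B (-1.72 to 1.29), -0.58 for IL6 (-1.95 to 0.78) and -0.15 for IL10 (-1.19 to 0.90). None had an unadjusted p under 0.05 and DESeq2 called none, but the intervals are wide enough to hold differences of over 1.5-fold in both directions for IL1B, IL6 and IL10.

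High pairs 2 and 3 bore on each of these differences, in opposite directions. Without pair 2 that of TNF was 1.36 and called (edgeR adjusted p = 0.019), and those of IL1B, IL6 and IL10 turned to 0.58, 0.20 and 0.43, none of them called. Without high pair 3 the differences were 0.11 for TNF, -0.825 for IL1B, -1.08 for IL6 and -0.59 for IL10, none called. That of IL1B also turned to 0.11 without low pair 1. A difference in the early response of these genes was therefore not resolved with 3 pairs in each phenotype.

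At 18 hours 0 of 4 differed in edgeR or DESeq2, and 1.62% of all genes tested were called by edgeR. Of the 11759 genes tested, 2067 had an unadjusted p under 0.05 in edgeR. The differences were 0.33 for TNF (-0.14 to 0.80), 0.42 for IL1B (-0.30 to 1.15), 2.07 for IL6 (0.54 to 3.61) and 0.55 for IL10 (-0.62 to 1.71). That of IL6 was the only one of the 4 with an unadjusted p under 0.05 (0.013, or 0.16 after adjustment). It was positive in all alternative fits, from 1.37 to 2.57. Whether the difference itself changed between 3 and 18 hours was tested over the 24 libraries: 0 of 4 cytokines and 0% of the 11905 genes tested were called by edgeR (1160 at an unadjusted p under 0.05, and 35 by DESeq2), with 2.79 ± 1.00 for IL6 (unadjusted p = 0.015, adjusted p = 0.40).

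Levels were then compared between the phenotypes within one kind of well. In the exposed wells at 3 hours the values of high and low responders overlapped for each cytokine, and 0 of 4 were called, beside 0.0839% of the 10726 genes tested. The log2 differences in level were -0.23 for TNF, 0.19 for IL1B, -0.84 for IL6 and 0.74 for IL10, the last with the smallest unadjusted p of 0.060. That of IL6 was 0.20 without low pair 3.

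In the exposed wells at 18 hours IL1B, IL6 and IL10 were higher in each of the 3 high responders than in each of the 3 low responders. How many of all genes tested stood apart in this way was not counted. The lowest high responder stood at 6650 CPM of IL1B against 5008 CPM in the highest low responder. For IL10 these neighbours were 5.68 and 3.41 CPM. For IL6 they were 1.684 and 1.675 CPM, so that these 2 libraries were nearly equal, while the group means were 8.88 ± 7.16 and 0.948 ± 0.678 CPM (SD, n = 3).

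None of these differences passed the edgeR threshold. At 18 hours 0 of 4 cytokines were called in the exposed wells, and 0.0446% of the 11210 genes tested were. The log2 difference was 2.08 ± 0.40 for IL10 (adjusted p = 0.082), 3.23 ± 0.83 for IL6 (adjusted p = 0.12), 1.29 ± 0.39 for IL1B (adjusted p = 0.16) and 0.31 ± 0.24 for TNF (adjusted p = 0.53), and the first 3 had an unadjusted p under 0.05. Over all genes, 2041 of the 11210 tested had such an unadjusted p in edgeR. DESeq2 called IL10 (adjusted p = 7.9e-05), IL6 (6.3e-04) and IL1B (0.0050), among 638 genes that it called in this comparison. An edgeR fit over all 24 libraries called IL10 (adjusted p = 0.031), among 117 genes called. The direction for these 3 genes was the same in every fit that left out 1 library, at 1.79 to 2.41 for IL10, 2.50 to 3.92 for IL6 and 0.96 to 1.61 for IL1B.

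The sum of the macrophage markers also differed between the phenotypes in these wells, by a narrow gap. CD14, CD68 and MSR1 summed to 2531 to 2969 CPM in high and 1984 to 2522 CPM in low responders in the exposed wells at 18 hours. CD14 alone was at 337 ± 46.7 and 148 ± 62.6 CPM (SD, n = 3), a small part of the sum. CD68 and MSR1 were not examined singly. After accounting for control wells, the paper lists MSR1 as more expressed in low responders, so the sum does not stand for each marker. The part of these markers in the cytokine differences was not tested. The marker ranges were also apart in control wells, at 3003 to 3101 against 1779 to 2718 CPM at 3 hours and 2485 to 3061 against 1791 to 2456 CPM at 18 hours, whereas those of the exposed wells at 3 hours overlapped, at 2642 to 3065 against 1879 to 2906 CPM.

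Without bacteria TNF stood the other way at 3 hours. In the control wells at 3 hours it was lower in each high responder (12.7 to 23.3 CPM) than in each low responder (35.9 to 43.0 CPM). The log2 difference was -1.14 ± 0.26 in edgeR, so that it was not called (unadjusted p = 0.0026, adjusted p = 0.23), and 0.00906% of the 11034 genes tested were. In edgeR 866 of the 11034 genes tested had an unadjusted p under 0.05. DESeq2 called TNF (adjusted p = 0.0070), among 240 genes that it called in this comparison. How many of all genes stood apart without overlap was not counted. At 18 hours the control wells overlapped for TNF, with a difference of -0.03 ± 0.24.

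IL10 in control wells was higher in each high responder than in each low responder at both times, at 1.77 to 2.89 against 0.605 to 1.68 CPM and 2.13 to 2.86 against 0.453 to 1.81 CPM. How many of all genes stood apart in this way was not counted. The log2 difference of IL10 was 0.80 ± 0.50 at 3 hours (edgeR adjusted p = 0.88) and 1.43 ± 0.51 at 18 hours (unadjusted p = 0.026, adjusted p = 0.17). Over all genes, 2460 of the 11356 tested at 18 hours had an unadjusted p under 0.05 in edgeR. The IL10 levels stand for 6 to 45 read pairs, and edgeR called none of the 4 cytokines in control wells at either time, where 0.150% of the 11356 genes tested were called at 18 hours. The wells of the 2 times come from the same cows, so they are not independent repeats of this order.

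Of the low responders, pair 3 held the highest IL1B, IL6 and IL10 in control wells at both times. Its IL1B of 102 CPM at 3 hours and 98.6 CPM at 18 hours lay within or above the range of the high responders (50.4 to 81.4 and 80.8 to 140 CPM), while the other two low responders lay below it, at 33.7 to 37.7 CPM. Without low pair 3 the log2 differences, high minus low, in control wells at 18 hours were 1.53 for IL1B, 1.92 for IL6 and 2.23 for IL10, and none was called.

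**Figure D3:**
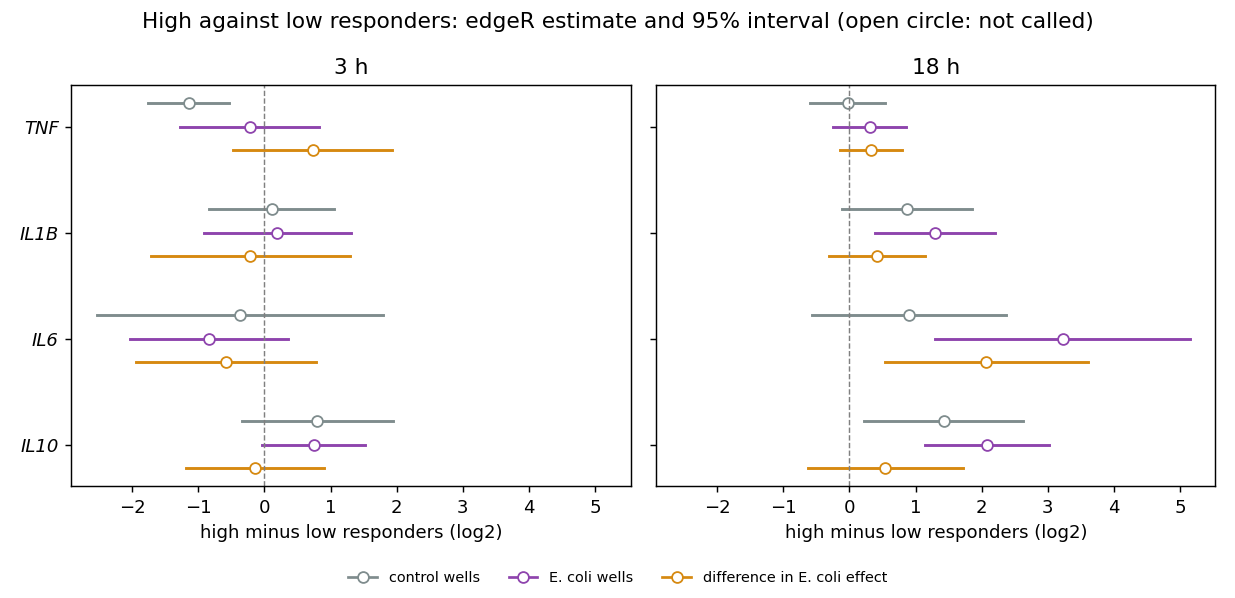
Difference in log2 level between high and low responders for each cytokine at 3 hours (left) and 18 hours (right), in control wells (grey), in exposed wells (purple) and for the change on exposure (orange), as edgeR estimates with 95% intervals and open circles where the gene was not called. All 24 circles are open; at 18 hours the intervals of the exposed wells lie above 0 for IL1B, IL6 and IL10, and at 3 hours that of TNF in control wells lies below 0.

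The balance between the cytokines was read from ratios of TPM within a library. IL1B stood at 1.47 to 1.54 TPM per TPM of TNF in the exposed wells of the high responders at 3 hours and at 13.2 to 15.1 at 18 hours. In the low responders it stood at 0.822 to 1.64 and at 4.28 to 8.80. The ratio thus rose with time in both phenotypes, and at 18 hours it was higher in each high than in each low responder, by 2.18 times on the geometric mean.

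IL10 stood at 2.04 to 7.97 TPM per 100 TPM of TNF in the exposed wells of high responders at 18 hours and at 1.25 to 1.61 in those of low responders. In control wells it stood at 20.1 to 44.3 against 3.72 to 12.04 at 3 hours and at 16.6 to 36.6 against 5.72 to 14.7 at 18 hours. Relative to TNF, IL10 was therefore higher in the high responders without overlap in these 3 sets of wells, by 3.20 to 4.15 times, and the ratios overlapped only in the exposed wells at 3 hours (2.74 to 6.11 against 1.17 to 2.87). Of 8 such comparisons of both ratios, the 4 without overlap had an exact two-sided permutation p of 0.1, the smallest that 3 against 3 allows, and an adjusted p of 0.2. The sets of wells come from the same 6 cows, so they are not independent. In control wells at 3 hours mean TNF was lower in the high responders (17.8 against 38.8 CPM) and mean IL10 1.74 times higher. IL10 there rested on 6 to 45 read pairs. Ratios of IL6 were also computed but not tested. In exposed wells at 3 hours IL6 per TPM of IL10 was higher in the low responders without overlap (1.46 to 3.59 against 0.603 to 1.09). In control wells at 18 hours IL6 per 100 TPM of TNF was higher in the high responders (9.62 to 11.9 against 2.60 to 9.15). In all other sets of wells the IL6 ratios overlapped.

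**Figure D4:**
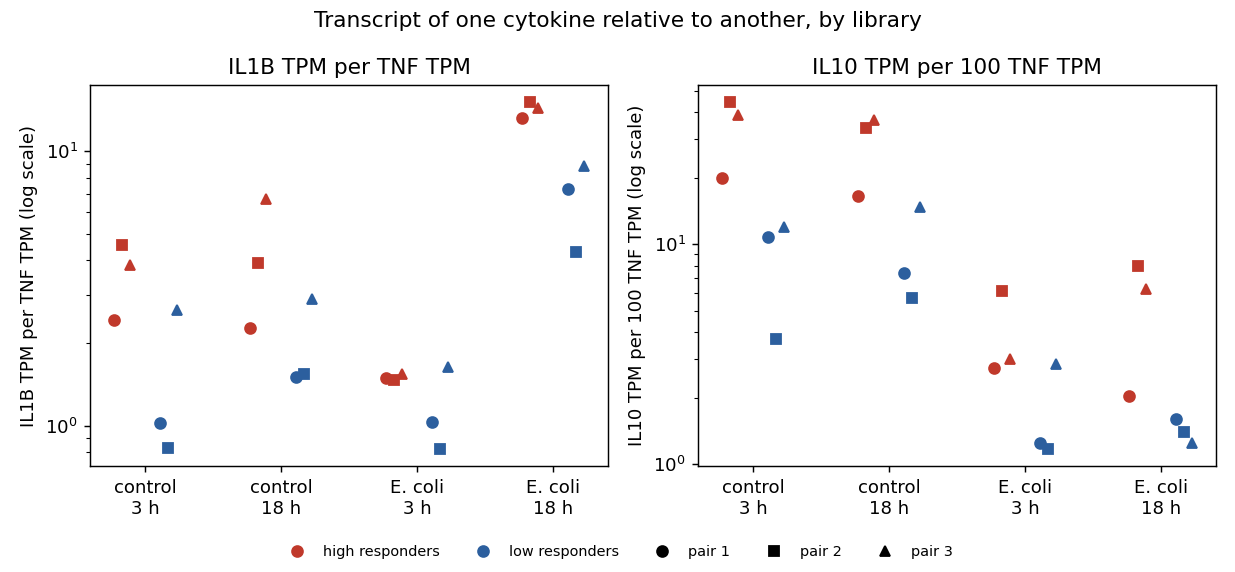
Ratio of IL1B to TNF (left) and of IL10 to 100 of TNF (right), both in TPM and on log axes, in each library by treatment and time, high responders in red and low in blue. In exposed wells at 18 hours the IL1B ratio lies at 13.2 to 15.1 in high and 4.28 to 8.80 in low responders, and the IL10 ratio is higher in the high responders in 3 of the 4 sets of wells without overlap.

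The order of the 8 groups differed between the genes. For TNF and IL6 the exposed wells of 3 hours stood first, then those of 18 hours of the high responders; TNF of low responders at 18 hours came next, whereas IL6 there overlapped with its control wells, as the lowest IL6 value of high responders at 18 hours also did. For IL10 the exposed wells of high responders at 18 hours (11.4 ± 5.12 CPM) stood apart both from the exposed wells of 3 hours and from those of low responders at 18 hours (2.65 ± 0.706 CPM). The latter overlapped with the control wells of high responders (2.60 ± 0.411 CPM). For IL1B 3 of the 4 exposed groups overlapped in a row, with means of 8913, 8813 and 7907 CPM. That of low responders at 18 hours, at 3629 CPM, lay apart from the next above and below. Its range (1684 to 5008 CPM) still overlapped that of the exposed high responders at 3 hours (3043 to 13420 CPM).

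Over the 24 libraries the gene with a profile most like that of IL6 was IL10. Likeness was the root mean square difference of log2 CPM with each gene centred on its own mean, which was 1.24 for IL6 and IL10 and 3.05 for IL6 and the median gene. Seen from IL10 there were 66 genes nearer than IL6, and the nearest, at 0.668, had no symbol in the tables used. TNF and IL1B were 1.28 apart, with 13 genes nearer to TNF and 16 nearer to IL1B. These genes share the libraries and the strong contrast of exposed and control wells, so the values describe the profiles only.

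Other genes of the same pathways were followed through lists of sensors, signal carriers, inhibitors and cytokines. Of 70 symbols 23 had an identifier in the tables used, and the lists for the receptors of IL-6 and IL-10 had none. At 3 hours 16 of the 22 tested rose and 1 fell in either phenotype, and at 18 hours 17 of 23 rose with 2 lower in the high and 3 lower in the low responders. Over all genes tested, 27.6% and 17.7% were called at 3 hours and 39.6% and 29.1% at 18 hours in high and low responders, in either direction. The median log2 change was 2.75 and 2.08 at 3 hours and 1.74 and 1.17 at 18 hours in high and low responders. For the difference between phenotypes in this change edgeR called 0 of 22 at 3 hours and 0 of 23 at 18 hours, with 10 and 17 at an unadjusted p under 0.05. Over all genes tested it called 0.178% of 11264 and 1.62% of 11759, with 1430 and 2067 genes at an unadjusted p under 0.05. One of the tables that paired symbols with identifiers was a shortened list that begins with the genes most different between the phenotypes at 18 hours in these samples, so the listed genes are partly chosen on that difference and their counts are no evidence of it.

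Among the genes that release and process these cytokines, NLRP3, the inflammasome sensor through which pro-IL-1 beta is cut, rose by 4.42 ± 0.18 in the high and 4.12 ± 0.18 in the low responders at 3 hours. ADAM17, the protease that sheds TNF from the cell surface, rose by 1.08 ± 0.15 and 0.61 ± 0.15. On the receiving side BIRC3, a regulator in the TNF receptor complex, rose by 4.03 ± 0.15 and 3.27 ± 0.14. IRAK2, a kinase of the IL-1 and Toll-like receptors, rose by 4.36 ± 0.20 and 3.69 ± 0.19, whereas IL1RAP, the shared chain of the IL-1 receptor, was not called at either time. All of these log2 changes were smaller than those of IL1B and TNF in the same wells.

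Of the sensors, MYD88, the adaptor of most Toll-like receptors, fell in both phenotypes at 3 hours (-0.66 ± 0.15 and -0.71 ± 0.15) and TAB2, which links the adaptor complex to downstream kinases, rose (1.65 ± 0.16 and 1.09 ± 0.16). TLR4, the lipopolysaccharide receptor, was not called at 3 hours (0.33 ± 0.12 and 0.06 ± 0.12). The NF-kB subunits NFKB2 (3.77 ± 0.15 and 3.04 ± 0.15) and RELB (2.58 ± 0.21 and 1.79 ± 0.21) rose as well. The feedback inhibitors with an identifier (TNFAIP3, TNIP1, NFKBIE, IRAK3 and DUSP1) rose in both phenotypes at both times. NFKBIZ, counted in the same list, rose too, and whether it restrains these cytokines was not tested.

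Among the other cytokines CSF2, which encodes GM-CSF, rose by 7.40 ± 0.79 and 7.02 ± 0.74 at 3 hours and by 7.78 ± 0.25 and 6.98 ± 0.24 at 18 hours. Its change over control was thus no lower at 18 than at 3 hours in the high responders. Their mean CSF2 level in exposed wells was lower, at 1254 ± 899 CPM at 3 and 775 ± 382 CPM at 18 hours (SD, n = 3). The control wells held 5.71 and 3.39 CPM on average. LIF, a cytokine of the IL-6 family, rose by 6.82 ± 0.52 and 5.33 ± 0.43 and then by 4.99 ± 0.36 and 3.16 ± 0.28. LTA, the neighbour of TNF in its family, rose by 3.99 ± 0.44 and 3.61 ± 0.44 at 3 hours. IL17A, best known as a product of T cells, had no count in the 12 control libraries and 7.36 ± 5.84 CPM in high and 3.75 ± 1.22 CPM in low responders' exposed wells at 18 hours.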

How the data were processed

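The study sequenced stranded mRNA libraries as read pairs. Per the paper's methods the authors trimmed them with Trimmomatic (read ends under Phred 30, reads under 100 bp removed), mapped them with STAR to UMD 3.1, quantified genes with RSEM and tested with DESeq2 (1.22.2 per the submitters' processing notes). The deposited files hold RSEM expected counts, estimated and not normalized, and TPM, for 24616 genes in each of 24 libraries. The values of the 4 cytokines were whole numbers in every library. Symbols came from copies of supplementary tables, which were shortened and name 2810 of the identifiers, and for TNF and IL10 from the choice of genes.

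Expected counts were rounded and fitted with edgeR 4.0.16 (TMM, filterByExpr, quasi-likelihood F test) in R 4.3.3, on the whole table. Changes on exposure and their differences used the 12 libraries of a time point with the pair of wells as a block. Levels used 6 libraries of a kind of well and time point, courses over time 12. SE is the log2 change divided by the square root of F. The fits were tested on simulated data first. The labels do not state which wells share a cow, so the number in the sample name was taken to pair control and exposed wells. Deviations from group means correlated at 0.341 to 0.690 over 11905 genes where 2 wells shared the number (12 pairs). They correlated at -0.523 to -0.0124 where they did not (24 pairs). The same letters across times gave 0.299 to 0.683, against -0.502 to -0.00524 for different letters. Alternatives were RLE scaling, no filter, DESeq2 1.42.0, no block, all 24 libraries, a term for the number in the sample name, a block by letters, and leaving out each pair or library. All 4 cytokines are named throughout; of the lists, those with the largest change called are named, beside receptors chosen after their values were seen. The cytokines and lists were chosen with earlier results of these data known. Results for some genes are not reported here.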

Additional observations from a re-analysis of the deposited data

How the results depend on the processing

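The 56 results (4 cytokines in 14 comparisons) gave 688 values under alternatives, of which 628 kept direction and side of the threshold. Of 21 called results 20 kept their call in every alternative run, the exception being IL10 in low responders at 18 hours. No value that turned its sign was called. Apart from fits leaving out a library, DESeq2 called 4 results that edgeR did not: TNF in control wells at 3 hours (-1.16) and IL1B (1.305), IL6 (3.24) and IL10 (2.10) in exposed wells at 18 hours, high minus low. The fit over all 24 libraries called the last (2.08), and the replicate block by letters called the course of IL1B in exposed wells of low responders (-1.24). Dropping the replicate block by pair of wells changed no call of a cytokine. In fits of all libraries of a comparison some signs turned: the difference of IL1B at 3 hours was 0.091 without the replicate block and 0.034 with the term for the number in the sample name. The course of IL1B in exposed wells of high responders was -0.003 with DESeq2 size factors and with DESeq2. In control wells the course of TNF was 0.001 and 0.002 in these fits, and that of IL6 was 0.019 with DESeq2 and 0.16 with the block by letters. The cause of these turns was not tested.

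With 1 pair or library left out at a time, the change on exposure in low responders at 18 hours was -0.077 to 0.286 for IL6 and 1.19 to 2.20 for IL10. The difference of the changes, high minus low, at 3 hours was 0.11 to 1.36 for TNF, -0.82 to 0.58 for IL1B, -1.08 to 0.20 for IL6 and -0.59 to 0.43 for IL10, and at 18 hours -0.17 to 0.86 for IL10. In exposed wells at 3 hours, high minus low, it was -0.66 to 0.16 for TNF, -0.27 to 0.59 for IL1B and -1.21 to 0.20 for IL6. In control wells it was -0.16 to 0.74 for IL1B and -0.98 to 1.23 for IL6 at 3 hours and -0.29 to 0.17 for TNF at 18 hours. The course of IL1B in exposed wells was -0.38 to 0.46 in high and -1.45 to -0.79 in low responders, and in control wells it was -0.14 to 0.11 for TNF, -0.52 to 0.80 for IL6 and -0.45 to 0.15 for IL10. The change of the difference between times was -1.03 to 0.28 for TNF, -0.155 to 1.296 for IL1B, 2.03 to 3.31 for IL6 and 0.047 to 1.23 for IL10. Among the signs that turned, IL6 in control wells at 3 hours went from -0.37 to 1.23 without low pair 3, and the difference of IL1B at 3 hours from -0.22 to 0.58 without high pair 2.

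The share of all genes called depended on the fit. Without the block by pair the changes on exposure at 3 hours had 1824 instead of 3113 genes called in high and 829 instead of 1994 in low responders. The difference at 3 hours had 20 called, and 103 with no filter, 189 with DESeq2, 165 over all 24 libraries, and 0 without the block or with the term for the number. At 18 hours it had 190, and 436, 398, 124, 0 and 67. High minus low in exposed wells had 9 at 3 hours (51, 280 and 132 with no filter, DESeq2 and all 24 libraries) and 5 at 18 hours (41, 638 and 117). In control wells it had 1 (8, 240 and 199) and 17 (219, 691 and 48). The course in control wells had 3 (45 with DESeq2, 35 with the block by letters), and the change of the difference 0 (3 with no filter, 35 with DESeq2, 1 with the block by letters). RLE scaling moved the median of all genes by at most 0.03 on the log2 scale. IL6 and IL10 in control wells, at 1 to 45 read pairs, limit what their folds can show.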
